A study of Arabidopsis thaliana with 9 samples.

Results

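Gene expression in F1 hybrid seedlings of Arabidopsis thaliana was set against that of their Col parent. The comparison takes the 3 arrays labelled F1 and the 3 arrays labelled Col, 6 of the 9 arrays of the series, and every one of the 22746 probe sets that is not a control; 15922 of these passed a filter on low signal and were tested. The hybrid group came from the accessions Col and C24, and the labels do not say which accession was the mother. Col is an inbred accession, the one whose genome serves as the species' reference. The 3 remaining arrays hold the other parent, C24, whose values stand beside those of F1 and Col for many of the genes below. The labels name no transgene, mutation or treatment in any of the 3 groups. Plants were grown at 22 °C with 16 h of light and 8 h of dark and taken at 10 DAS, the labels' unit of age. Total RNA came from seedlings without their roots, was labelled with biotin and went onto 1 single-colour Affymetrix array per biological replicate. The labels do not say how many seedlings made a sample or whether replicates were grown apart, so p-values measure the spread between these samples, which may be partly technical.

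An F1 hybrid carries a copy of the nuclear genome of each parent, while its plastids come as a rule from the mother alone. For a nuclear gene that the parents express at different levels, the hybrid can lie between them, match the stronger or the weaker parent, or leave their range. Hybrids of Col and C24 are known for growing larger than either parent, an effect called heterosis or hybrid vigour. The comparison asks which transcripts set such a hybrid apart from the parent Col at this age. A difference from Col can be shared with C24, so it is not by itself a trait of the hybrid. A probe set reads a transcript through short probes, and where the C24 copy of a gene differs in sequence from a probe, the amount of that transcript and its match to the probes cannot be told apart in F1 or in C24.

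The 6 arrays were alike in bulk. Over the tested probe sets, F1 arrays correlated with one another at 0.957 to 0.967, and with Col arrays at 0.942 to 0.968. F1 held signal from genes near the bottom of the scale in Col (AT4G29200) and from genes at the floor of 1 in C24 (AT1G76960), with values given below. Of the leaf mesophyll markers, RCA (Rubisco activase) was the only one named by a probe set, and had signals of 5805, 5729 and 5420.2 in F1 against 5662, 5444 and 6345 in Col. The guard cell regulator FMA lay at 61.5, 57.7 and 75.4 in F1 against 75.4, 54.7 and 71.3 in Col. Of 10 root markers 5 were measured, and EXPA7, AT4G30170 and AT5G17820 among these did not pass the filter on low signal. The summed signal of the 5 was 600.1, 677 and 837 in F1 against 320.0, 269 and 345.5 in Col, most of it from PYK10. Without PYK10 it was 74.4, 55.4 and 20.2 in F1 against 26.7, 32.9 and 38.5 in Col. Markers of flower, seed and shoot apical meristem were named by no probe set used here. In bulk seedlings, a change in the share of a cell type and a change of RNA per cell cannot be told apart. F1 replicate 2 stood apart by its low plastid transcripts and by its 25S rRNA control, at 41.4 against 1380 and 1807 in the other F1 arrays and 503 to 2464 in Col, and 44.9 to 217 in C24. The hybridisation spikes of F1 replicate 3 had a geometric mean of 198, against 329.9 and 367 in the other F1 arrays and 320.0 to 379.7 in Col. Replicate 1 of every group lay apart from the others on the second principal component, which held 19.4% of the variance.

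Few probe sets passed the test between F1 and Col, and most of these were brighter in the hybrid. The filter took the mean over all 9 arrays, C24 among them. A probe set bright in F1 and C24 thus passed it more easily than a probe set bright in Col alone. The balance of higher and lower calls holds for the probe sets kept by this filter. A probe set was called where the adjusted p of limma's fit over all 9 arrays was under 0.05 (Benjamini-Hochberg over all tested probe sets). By this rule 65 probe sets were higher in F1 (0.408% of those tested) and 16 were lower (0.1%), together 0.509%. Of the 81, 72 differed at least 2-fold (0.452%), 57 higher and 15 lower. In 19 of the higher and 2 of the lower ones the dimmer group lay under the filter level, and 15 and 2 of these differed at least 2-fold when the dimmer arrays were raised to that level. Among the others the log2 difference reached 5.84 in the higher and 3.00 in the lower ones. The 5.84 is that of 250476_at, whose fitted Col mean of 13.9 was close to the filter level. The median size was 1.70 as fitted, or 1.504 with the dim ones at their bound, for the higher calls and 1.24 either way for the lower calls. The F1 and Col arrays did not overlap in any of the 81, and each was on its side at every replicate number; 2321 probe sets (14.6%) had arrays that did not overlap, so absence of overlap alone was common. A further 309 probe sets differed at least 2-fold and did not pass, and 8.92% of all tested probe sets had an unadjusted p under 0.05. Few calls therefore does not mean few differences. The median of all tested probe sets was -0.0026 in log2, with quartiles at -0.18 and 0.16. For scale, the same fit called 1348 probe sets (8.47%) for C24 against Col, which shares the Col arrays, and 331 (2.08%) for F1 against C24, which shares the F1 arrays. Of the 81 calls, all but AR781 were also past the threshold for C24 against Col, with C24 on the same side of Col as F1. Both comparisons use the Col arrays, so this overlap is partly built in.

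The fit was also run with the replicate number as a block, a pairing that the data bear out for replicate 1 more than for replicates 2 and 3. It called 88 probe sets higher (0.553%) and 32 lower (0.201%), among them 63 of the 65 and 15 of the 16 above. Leaving out arrays moved the calls more: 24 of the 65 and 5 of the 16 passed in each of the 9 fits that left out 1 array. Without F1 replicate 1, 2 or 3 there were 32, 30 and 35 higher calls, and 7, 8 and 7 lower. Without Col replicate 1, 2 or 3 the lower calls numbered 8, 6 and 9. Of the 65 higher probe sets 41 name 1 gene, 1 names several and 23 are not listed in the annotation used; of the 16 lower the numbers are 10, 1 and 5.

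**Figure D1:**
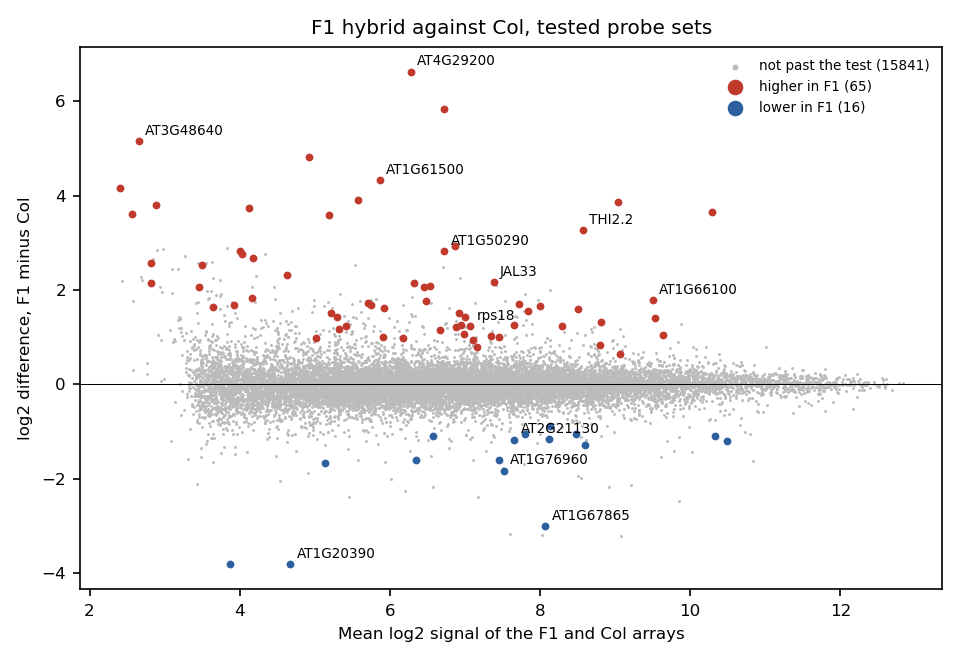
Each point is a tested probe set, with the mean log2 signal on the horizontal axis and the log2 difference, F1 minus Col, on the vertical axis; probe sets past the test are coloured. The 65 higher calls reach AT4G29200 at the top, at 6.63 as fitted with Col under the filter level, and the 16 lower calls reach down to -3.82 with F1 under it.

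Genes of thionins and of jacalin-related lectins were among those higher in the hybrid. Thionins are small, cysteine-rich plant proteins known for toxicity to microbes, and both thionin genes tested were higher in F1. THI2.2 had signals of 1411, 1389 and 843 in F1 against 139.5, 92.8 and 143 in Col, with 2198, 1731 and 2054 in C24. Every F1 array was brighter than every Col array, by 9.62-fold in the fitted means (log2 3.27 ± 0.23 SE, adjusted p = 0.000137). The thionin gene AT1G66100 had signals of 1436, 1813 and 947 in F1 against 405, 356 and 416 in Col, with 1587, 1533 and 2136 in C24. Again the groups did not overlap; F1 was 3.45-fold higher (log2 1.79 ± 0.22 SE, adjusted p = 0.00726). F1 replicate 3 was the dimmest hybrid array for both thionins. The thionin list was written after the called genes had been seen and its count supports nothing beyond the genes themselves.

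Jacalin-related lectins bind sugars, and several are known as partners of PYK10, the beta-glucosidase stored in the ER bodies of Brassicaceae. Of 4 jacalin-related lectin genes named by symbol and tested, 3 passed the test, all higher in F1, beside 0.408% of all probe sets; this list too was written with the calls in view, so nothing is read from its share. JAL33 had signals of 387, 463 and 250.1 in F1 against 71.3, 67.6 and 101 in Col, with 1160.5, 1068 and 1377 in C24. All F1 arrays lay above all Col arrays, and the difference was 4.51-fold (log2 2.17 ± 0.24 SE, adjusted p = 0.00426). JAL34, which neighbours JAL33 on chromosome 3, had signals of 497, 519 and 373 in F1 against 115, 145 and 180.5 in Col, with 886, 726 and 928 in C24. F1 was 3.18-fold higher with no overlap (log2 1.67 ± 0.20 SE, adjusted p = 0.00644). These were the only called genes with consecutive locus numbers. JAL22 had signals of 217, 267 and 259 in F1 against 117, 122 and 133 in Col, and 339, 428 and 467 in C24. F1 was 2.0-fold higher (log2 1.00 ± 0.16 SE, adjusted p = 0.026), but did not pass without any 1 of the F1 or Col arrays or without C24 replicate 2 (largest adjusted p 0.138). JAL23 differed by 1.08 ± 0.39 in log2 and did not pass (adjusted p = 0.424).

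Another list, of ER-body genes and jacalin lectins, shares JAL33 and JAL34 but does not hold JAL22. Of its 19 loci 8 were tested, and all 8 were above 0. Their median log2 difference was 1.17, beside -0.0026 for all tested probe sets. The list was chosen with earlier results of these data known, so nothing is read from the shared direction of its members. Of its members JAL33, JAL34 and AT3G20370 passed, all higher in F1, beside 0.408% of all probe sets. AT3G20370, of the MATH or TRAF-like domain family, had signals of 163, 139 and 212 in F1 against 53.0, 27.6 and 37.2 in Col, with 499.5, 349 and 444 in C24. All F1 arrays were above all Col arrays, by 4.45-fold (log2 2.15 ± 0.26 SE, adjusted p = 0.00644). PYK10 itself had signals of 526, 621 and 816 in F1 against 293, 236 and 307 in Col, with 1017, 1230.2 and 1839.9 in C24. The groups were apart by 1.22 ± 0.23 in log2, which did not pass in the fit without a block (adjusted p = 0.069) and passed with the replicate block (adjusted p = 0.0108). The lectin gene AT1G52100 differed by 1.12 ± 0.29 (adjusted p = 0.19), NAI2, an ER-body component, by 0.45 ± 0.25 (adjusted p = 0.656), and NAI1, the transcription factor of ER-body formation, by 0.30 ± 0.40 (adjusted p = 0.907). PYK10 is strongly expressed in roots and makes up most of the root marker sums above; the other 4 measured root markers summed to 74.4, 55.4 and 20.2 in F1 against 26.7, 32.9 and 38.5 in Col, with 17.9, 13.4 and 12.2 in C24. These others were above all Col arrays in F1 replicates 1 and 2, below them in F1 replicate 3, and lowest in C24, where PYK10 was brightest. Among them EXPA7, AT4G30170 and AT5G17820 did not pass the filter on low signal, which limits these sums. The part of root tissue in these values was not tested.

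AT4G29200 was bright in F1 and near the bottom of the scale in Col. Its signals were 796, 711 and 822 in F1 against 7.36, 8.78 and 7.44 in Col, with 1238, 1198 and 1323 in C24. The Col arrays lay under the filter level of 11.1, the signal at the 30th percentile of all probe sets, a level not separated from background here. Set against that level, as is done for every gene described as higher or lower by at least some fold, F1 was at least 70.0-fold higher (adjusted p = 6.23e-09). AT1G61500, which encodes a receptor-like kinase with an S-domain, the class of membrane receptors named after the self-incompatibility receptor, had signals of 178, 309.9 and 323 in F1 against 18.3, 17.4 and 6.99 in Col, with 285, 549.6 and 579 in C24. It was 20.0-fold higher in F1 (log2 4.32 ± 0.41 SE, adjusted p = 0.00174), and F1 replicate 1 was the lowest hybrid array. The fitted Col mean of 13.0 was close to the filter level and Col replicate 3 lay under it, which limits the precision of this fold. It was the 1 call among 11 tested S-domain receptor kinase genes, of 32 loci listed, beside 0.509% of all probe sets called. A single call is not read as a trait of the class. The median log2 difference of the 11 was 0.27. It was 0.13 without Col replicate 1 or F1 replicate 3, 0.44 without Col replicate 3 and 0.58 without F1 replicate 1. AT4G27300 of the same class differed by 1.13 ± 0.32 (adjusted p = 0.232) and AT1G61360 by 0.51 ± 0.22 (adjusted p = 0.544).

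AT5G15360 and AT1G50290 were higher in F1 with F1 arrays that lay close together. AT5G15360 had signals of 116, 128 and 135 in F1 against 15.0, 10.1 and 7.64 in Col, with 270.1, 214 and 232 in C24. The Col arrays were spread and their fitted mean was under the filter level, so F1 was at least 10.3-fold higher (adjusted p = 7.21e-05). AT1G50290 had signals of 262, 289 and 297 in F1 against 39.3, 40.1 and 39.9 in Col, with 394, 479.8 and 502 in C24. That was 7.10-fold (log2 2.83 ± 0.14 SE, adjusted p = 9.16e-06), with no overlap. Both passed in all 9 fits that left out 1 array.

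AT2G29370, AT4G23680 and AT5G09570 rose by 3.02 to 4.22-fold. AT2G29370, a dehydrogenase of the tropinone reductase-like family, had signals of 239, 149 and 195 in F1 against 62.6, 42.8 and 34.5 in Col, with 381, 269 and 237 in C24. F1 was 4.22-fold higher (log2 2.08 ± 0.27 SE, adjusted p = 0.00865). AT4G23680, of the family of major latex proteins, had signals of 629, 622 and 647 in F1 against 192, 161 and 298 in Col, with 1173, 1386 and 1189 in C24. The F1 arrays were nearly equal, and the difference was 3.02-fold (log2 1.59 ± 0.20 SE, adjusted p = 0.00767). AT5G09570, a small CHCH-domain protein, had signals of 157, 139.6 and 203 in F1 against 47.0, 39.0 and 61.3 in Col, with 281, 273 and 173 in C24. It was 3.41-fold higher without overlap (log2 1.77 ± 0.25 SE, adjusted p = 0.0134), and lost its call without F1 replicate 1, F1 replicate 3 or Col replicate 2 (largest adjusted p 0.0636).

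AT5G55570, AT2G40960, AT4G27050 and AT4G23050 rose by 2.4 to 4.16-fold. AT5G55570 had signals of 241, 193 and 125 in F1 against 72.6, 35.6 and 31.2 in Col (log2 2.06 ± 0.34 SE, adjusted p = 0.0277). Its call was lost without F1 replicate 1 or 2, Col replicate 2 or 3, or C24 replicate 1 or 2 (largest adjusted p 0.138). AT4G27050 had 196, 184 and 258 in F1 against 70.2, 92.8 and 74.8 in Col (log2 1.42 ± 0.17 SE, adjusted p = 0.00647) and kept its call in all 9 fits that left out 1 array. AT2G40960 had 181, 223 and 211 in F1 against 87.3, 83.9 and 50.0 in Col (log2 1.51 ± 0.25 SE, adjusted p = 0.0271), a call lost without any 1 F1 array, Col replicate 2 or 3, or C24 replicate 2 (largest adjusted p 0.138). AT4G23050, a protein kinase with a PAS domain, had 171, 218 and 187 in F1 against 107, 75.9 and 62.1 in Col (log2 1.26 ± 0.21 SE, adjusted p = 0.0311). It passed in 2 of the 9 such fits: without any 1 F1 array, Col replicate 2 or 3, or C24 replicate 1 or 2 the adjusted p reached 0.163. In C24 the means were 355 ± 66.1 for AT5G55570, 271 ± 61.4 for AT2G40960, 341 ± 8.22 for AT4G27050 and 288 ± 39.1 for AT4G23050 (SD, n = 3).

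AR781, AT3G19030 and NRPB7 rose by 2.02 to 2.32-fold. AR781 had signals of 164, 169 and 209 in F1 against 77.1, 94.3 and 64.1 in Col, with 72.7, 106 and 73.8 in C24. The hybrid arrays thus lay above all arrays of both parents, by 2.32-fold over Col (log2 1.21 ± 0.21 SE, adjusted p = 0.0375) and by 1.12 in log2 over C24 (adjusted p = 0.0231). The call against Col passed in 1 of the 9 fits that left out 1 array, that without C24 replicate 2, and the adjusted p reached 0.157 in the others. AT3G19030 had signals of 1252, 1186 and 1022 in F1 against 623, 613 and 455 in Col, with 1173, 1120.2 and 1035 in C24. It was 2.06-fold higher (log2 1.04 ± 0.15 SE, adjusted p = 0.0137), and not called without F1 replicate 1 or F1 replicate 2 (largest adjusted p 0.0801). NRPB7, a subunit of RNA polymerase II, had 242, 254 and 201 in F1 against 134, 102 and 109 in Col, with 321, 289 and 327 in C24. The 2.02-fold difference (log2 1.01 ± 0.16 SE, adjusted p = 0.0235) was not called without F1 replicate 1 or 2 or Col replicate 2 or 3 (largest adjusted p 0.132).

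**Figure D2:**
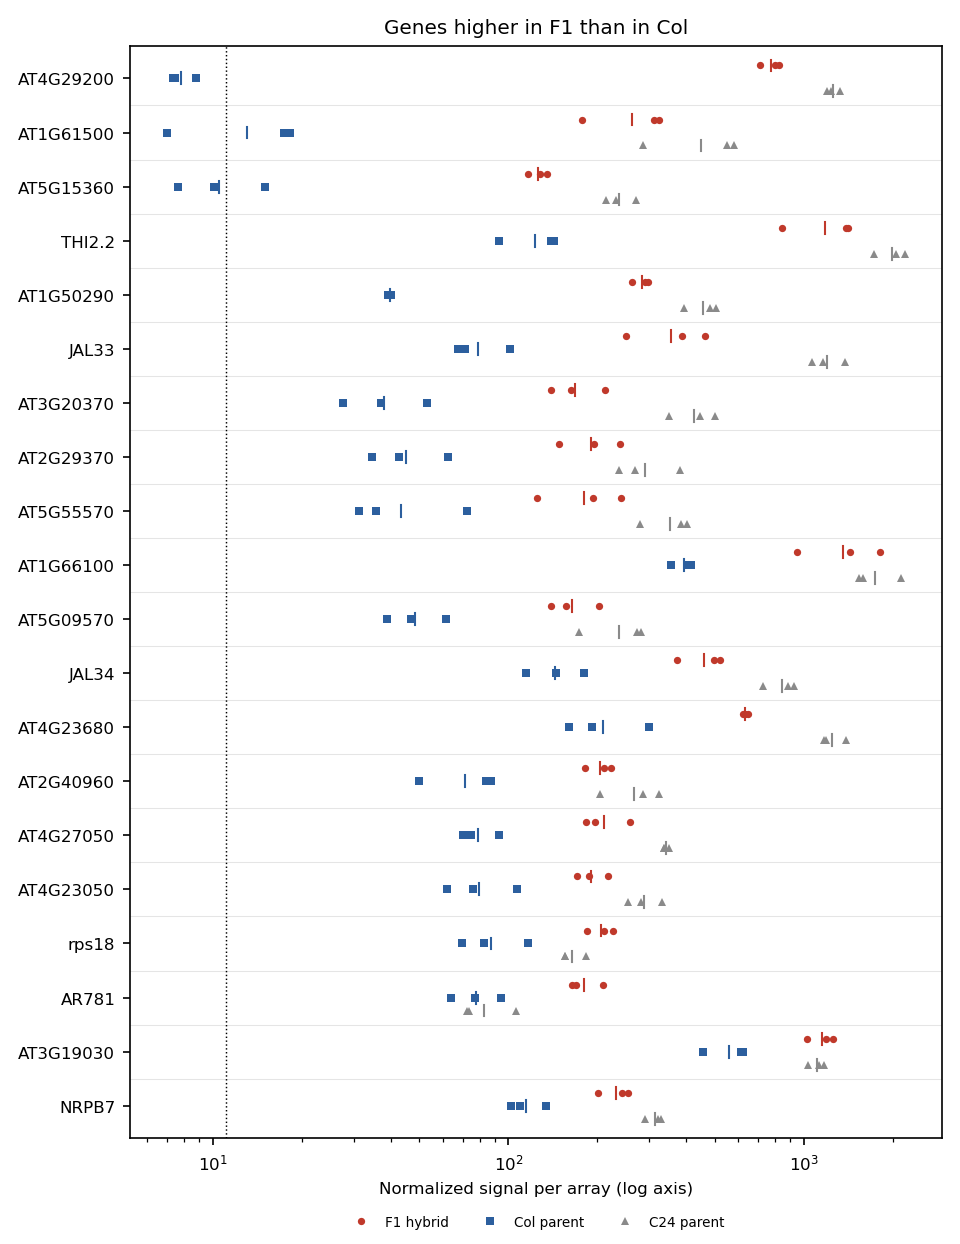
Normalized signals of the 20 named genes higher in F1, on a log axis, with a point per array, a short bar at each group's geometric mean and a dotted line at the filter level of 11.1. In each gene the F1 points lie to the right of the Col points, from a 2.02-fold difference at NRPB7 to AT4G29200, where Col lies under the filter level.

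Of the 65 higher probe sets, 19 had a fitted Col mean under the filter level; AT4G29200 and AT5G15360 are among them. Over all 65, the hybrid's mean signal ran from 15.0 to 4442. AT3G48640, chosen after its values were seen, had signals of 14.9, 40.6 and 88.5 in F1 against 1.0, 1.17 and 1.0 in Col, with 166, 192 and 126 in C24. Its F1 arrays were spread widely, yet all lay above Col, by at least 3.4-fold in the means (adjusted p = 0.00255), and the call was lost with a floor of 16. Both probe sets higher in F1 whose genes are annotated as pseudogenes belong here as well. AT5G34920 had 59.7, 66.8 and 66.0 in F1 against 1.41, 8.02 and 9.67 in Col, with 114, 111 and 146 in C24. Its call was lost without any 1 F1 array or C24 replicate 2 (largest adjusted p 0.117). AT1G43590 had 44.7, 34.4 and 50.6 in F1 against 6.62, 11.3 and 2.89 in Col, lost without any 1 F1 array or Col replicate 1 (largest adjusted p 0.115). Among probe sets with no gene name here, 250476_at had signals of 669.5, 820.3 and 924 in F1 against 21.9, 8.99 and 13.7 in Col. In C24 it had 829, 1013 and 1065, and F1 was not called against C24 (limma, adjusted p = 0.767). The probe set 263174_at had 4340.1, 4669.5 and 4316 in F1 against 386, 385 and 292 in Col, the brightest of the higher calls, at 12.6-fold (adjusted p = 3.01e-07). In C24 it had 5622.5, 5420.2 and 4908, and F1 was not called against C24 (limma, adjusted p = 0.413). These probe sets were picked after their values were seen.

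The genes lower in the hybrid included transposon relics, an immune receptor and genes listed at the floor in C24. AT1G67865 had signals of 126, 134 and 50.7 in F1 against 532, 1060 and 780.1 in Col, with 18.4, 17.4 and 26.1 in C24. F1 fell 8.00-fold below Col (log2 -3.0 ± 0.38 SE, adjusted p = 0.00767), with F1 replicate 3 the dimmest hybrid array and no overlap. AT1G76960 had signals of 113, 88.0 and 93.0 in F1 against 364, 381 and 301 in Col, and all 3 C24 arrays were at the floor of 1. F1 was 3.56-fold lower than Col (log2 -1.83 ± 0.18 SE, adjusted p = 0.00239). AT1G06100, of the fatty acid desaturase family, had signals of 54.2, 38.9 and 48.3 in F1 against 149.7, 149 and 127 in Col, with 18.0, 20.0 and 27.0 in C24. It was 3.04-fold lower without overlap (log2 -1.60 ± 0.20 SE, adjusted p = 0.00767). AT2G21130, which encodes a cyclophilin, a prolyl isomerase that helps proteins fold, had 134, 133 and 137 in F1 against 301, 316 and 295 in Col, with 70.4, 71.2 and 82.2 in C24. Its SE was the smallest of the 9 named lower genes, and it was 2.25-fold lower (log2 -1.17 ± 0.13 SE, adjusted p = 0.00426). These 4 genes passed in all 9 fits that left out 1 array.

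Both lower probe sets whose genes are annotated as pseudogenes are retrotransposon genes, from mobile elements that copy themselves through RNA and are usually held silent in plants. AT4G16870, of the copia type, had signals of 73.5, 121 and 115 in F1 against 335, 373 and 228 in Col, with 23.9, 20.8 and 17.6 in C24. F1 was 3.03-fold lower (log2 -1.60 ± 0.25 SE, adjusted p = 0.0237), a call lost without any 1 F1 array, Col replicate 1 or 2, or C24 replicate 2 (largest adjusted p 0.106). AT1G20390, of the gypsy type and outside the naming rule, had 13.1, 6.16 and 3.93 in F1 against 114, 87.5 and 87.9 in Col, with 2.05, 11.1 and 9.12 in C24. The F1 mean lay under the filter level, so F1 was at least 8.18-fold lower (adjusted p = 0.0277), not called without F1 replicate 2 or 3 or any 1 Col array (largest adjusted p 0.137).

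AT4G19500 encodes an immune receptor of the NLR class, intracellular proteins that recognise products of pathogens. Its signals were 59.6, 71.4 and 66.4 in F1 against 142, 146 and 132 in Col, and all 3 C24 arrays were at the floor of 1. The 2.13-fold lower level in F1 (log2 -1.09 ± 0.19 SE, adjusted p = 0.0439) was not called with the replicate block (adjusted p = 0.0733), nor without any 1 F1 or Col array (largest adjusted p 0.231). It was the 1 call among 49 tested NLR genes, beside 0.509% of all probe sets called. The list held 170 loci, of which probe sets named 101, so many receptors were not tested. Under the filter, AT1G69550 and AT5G36930 were dimmer in every F1 array than in any Col array and dimmest in C24. AT5G41540 was brighter in every F1 array, and others overlapped. These were picked after their values were seen. A single call is not read as a trait of the class. The median log2 difference of the 49 was -0.06, and between -0.06 and 0.04 with 1 array left out. AT5G45510 differed by -0.86 ± 0.22 (adjusted p = 0.186) while AT5G47250 had 47.4, 55.5 and 34.3 in F1 against 21.0, 17.4 and 3.44 in Col, with its fitted Col mean under the filter level (adjusted p = 0.227).

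AT4G20480 and AT1G47530 complete the lower nuclear genes named by rule. AT4G20480 had signals of 176, 161 and 227 in F1 against 392.45, 394 and 469 in Col, with 17.6, 12.9 and 16.4 in C24. The arrays did not overlap, and F1 was 2.24-fold lower (log2 -1.17 ± 0.18 SE, adjusted p = 0.025), a call lost without F1 replicate 1 or 2 or any 1 Col array (largest adjusted p 0.137). AT1G47530, a MATE-type efflux carrier, had 261, 237 and 244 in F1 against 519, 426 and 608 in Col, with 199.7, 146 and 209.7 in C24. F1 was 2.07-fold lower (log2 -1.05 ± 0.18 SE, adjusted p = 0.0385), which did not pass without any 1 F1 array, Col replicate 1 or 3, or C24 replicate 1 (largest adjusted p 0.18). Another MATE carrier, AT1G71140, chosen after its values were seen, was higher in F1, at 64.4, 66.7 and 61.6 against 24.5, 21.5 and 26.2 in Col (2.67-fold, adjusted p = 0.0132). In C24 it had 78.8, 54.4 and 84.4. Its call was lost without any 1 F1 array or Col replicate 2 (largest adjusted p 0.0768). Of probe sets with no gene name here, 267509_at had 4.98, 2.57 and 4.63 in F1 against 52.1, 68.1 and 47.05 in Col, with 7.45, 13.8 and 18.7 in C24. Its F1 arrays all lay under the filter level, so F1 was at least 4.97-fold lower (adjusted p = 0.00274).

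**Figure D3:**
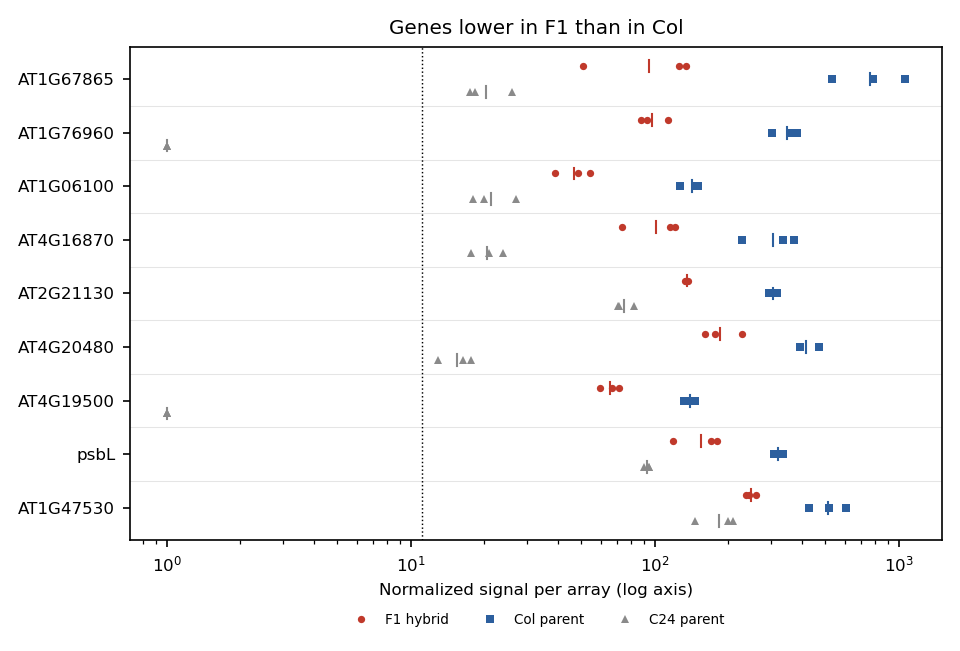
Normalized signals of the 9 named genes lower in F1, on a log axis, with a point per array, a short bar at each group's geometric mean and a dotted line at the filter level of 11.1. In each gene the F1 points lie to the left of the Col points, and C24 lies at the floor of 1 for AT1G76960 and AT4G19500.

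Most plastid-encoded transcripts lay below their Col level in the hybrid, but only psbL passed the test in that direction and the shift was smaller without F1 replicate 2. The plastid genome encodes core subunits of the photosystems, the large subunit of Rubisco and part of the plastid's own transcription and translation machinery. Of 39 tested plastid photosynthesis genes 38 were below 0, with a median log2 difference of -1.06, and 1 passed the test. Of 21 tested plastid genes of gene expression 16 were below 0, with a median of -0.65, and 1 passed, higher in F1. The summed signal of the 39 photosynthesis genes was 35300, 15770 and 41560 in F1 against 42600, 53440 and 41080 in Col. F1 replicate 2 was the low array: 36 of its 39 genes lay below all Col arrays, against 20 and 14 in F1 replicates 1 and 3. Against the Col mean, the median gene was at -0.35, -2.44 and -0.16 in F1 replicates 1, 2 and 3. Without F1 replicate 2 the median of the list was -0.22 with 29 of 39 below 0, and that of the gene expression list was -0.09 with 13 of 21 below 0. Without F1 replicate 3 the medians were -1.40 and -0.98. The 25S rRNA control was also lowest in F1 replicate 2. The C24 arrays had 25S signals of 90.7, 217 and 44.9 and plastid photosynthesis sums of 33940, 34000 and 34200.

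The spread shows in single genes. The photosystem I core gene psaA had signals of 361, 3.08 and 226 in F1 against 415, 221 and 402 in Col, so the F1 value rested on replicate 2 (log2 -2.40 ± 1.72 SE, adjusted p = 0.762). The Rubisco gene rbcL had 180.3, 18.3 and 149.7 in F1 against 143, 294 and 332 in Col, with overlap between the groups (log2 -1.61 ± 0.73 SE, adjusted p = 0.568).

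The lower plastid call was psbL, a small subunit of photosystem II. It had signals of 170.5, 119 and 179.7 in F1 against 321, 337 and 306 in Col, with 94.4, 89.9 and 95.0 in C24. The groups did not overlap, and F1 was 2.08-fold lower (log2 -1.06 ± 0.17 SE, adjusted p = 0.026). The call held without F1 replicate 3 and without C24 replicate 3, and was lost without any other 1 array, namely F1 replicate 1 or 2, any 1 Col array, or C24 replicate 1 or 2 (largest adjusted p 0.116). psbL is cotranscribed with its neighbours psbE, psbF and psbJ, which also encode photosystem II proteins. psbE had 651, 422 and 914 in F1 against 1566, 2226 and 1444 in Col (log2 -1.44 ± 0.29 SE, adjusted p = 0.0857). psbF had 1282, 902 and 1638 in F1 against 2080.3, 3198 and 2575 in Col (log2 -1.06 ± 0.25 SE, adjusted p = 0.151). In both the groups were apart but the test was not passed, while psbJ overlapped, at 442, 427 and 857 in F1 against 1267, 1904 and 813 in Col (adjusted p = 0.227).

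The higher plastid call was rps18, a protein of the small subunit of the plastid ribosome. It had signals of 211, 184 and 226 in F1 against 69.8, 116 and 82.6 in Col, with 155, 155 and 183 in C24. F1 replicate 2 was not set apart here, and F1 was 2.36-fold higher (log2 1.24 ± 0.20 SE, adjusted p = 0.0259). The call held in 2 of the 9 fits that left out 1 array, without Col replicate 2 and without C24 replicate 3, and was lost without any 1 F1 array, Col replicate 1 or 3, or C24 replicate 1 or 2 (largest adjusted p 0.115). Its neighbour rpl33, a protein of the large subunit, had 1450.4, 1286 and 1668 in F1 against 608, 722 and 508 in Col, with 851, 619 and 1556 in C24. The F1 and Col arrays did not overlap and the test was not passed (log2 1.27 ± 0.29 SE, adjusted p = 0.13). For rpoB, a subunit of the plastid RNA polymerase, F1 had 56.1, 7.03 and 52.1 against 6.39, 5.11 and 5.72 in Col, all under the filter level (adjusted p = 0.345).

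**Figure D4:**
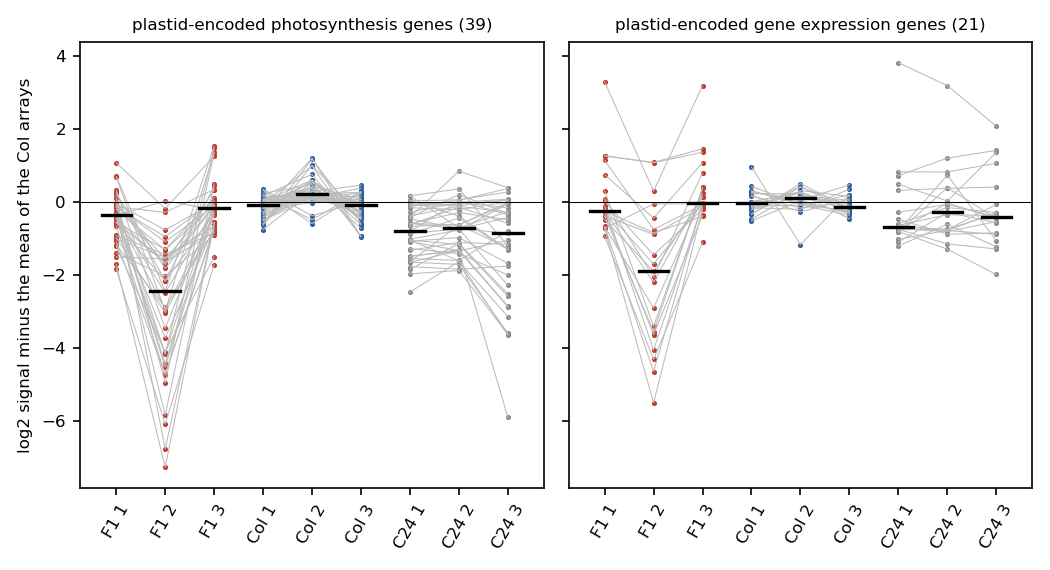
The log2 signal of each plastid gene minus the mean of its Col arrays, per array, for 39 photosynthesis genes on the left and 21 gene expression genes on the right; grey lines join the same gene within a group and black bars are medians. F1 replicate 2 has medians of -2.44 and -1.89, while F1 replicates 1 and 3 lie at -0.35 and -0.16 on the left and at -0.24 and -0.01 on the right.

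None of the tested nuclear genes of photosynthesis passed in either direction, beside 0.509% of all probe sets called. The lists are short, so 0 calls says little about these genes. Of the chlorophyll synthesis list 7 of 23 loci were tested, and of the Calvin cycle list 4 of 20. Of 7 genes of antenna and photosystem subunits, 0 were called and the median was -0.01; LHCB4.3, an antenna protein, differed by 0.33 ± 0.17 (adjusted p = 0.62), LHCB4.1 by -0.08 ± 0.07 (adjusted p = 0.829) and PSBY by 0.09 ± 0.08 (adjusted p = 0.826). None of 7 chlorophyll synthesis genes was called, with a median of -0.03; GSA1 differed by -0.24 ± 0.13 (adjusted p = 0.635), HEME1 by 0.15 ± 0.15 (adjusted p = 0.855) and HEMB1 by -0.08 ± 0.11 (adjusted p = 0.9). Of 4 Calvin cycle genes 0 were called, with a median of 0.02; SBPASE differed by -0.20 ± 0.11 (adjusted p = 0.649), PRK by 0.20 ± 0.11 (adjusted p = 0.665) and RCA by -0.04 ± 0.07 (adjusted p = 0.947). In these 3 lists 0 genes had an unadjusted p under 0.05, against 8.92% of all tested probe sets. PSBY turned its sign under the deposited scaling and under a common median.

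The other defence and stress lists held 0 calls, beside 0.509% of all probe sets called. With 5 of 28 salicylate and defence loci and 4 of 16 cold and abscisic acid loci tested, 0 calls says little about these genes. The salicylate and defence response list had 5 tested genes, all above 0 with a median of 0.90, and 0 were called; 2 had an unadjusted p under 0.05. The median was 0.52 without F1 replicate 3 and 1.35 without F1 replicate 1. PDF1.2b, a plant defensin, had signals of 67.9, 54.4 and 48.9 in F1 against 19.9, 11.3 and 25.7 in Col (log2 1.65 ± 0.35 SE, adjusted p = 0.106). GRX480, a glutaredoxin, had 20.2, 35.3 and 45.7 in F1 against 13.8, 13.3 and 13.5 in Col (log2 1.24 ± 0.31 SE, adjusted p = 0.179). In both the groups were apart, while AT5G55450 overlapped (log2 0.90 ± 0.46 SE, adjusted p = 0.631). All 4 cold and abscisic acid genes were below 0 with a median of -0.60, and 0 were called, 2 with an unadjusted p under 0.05. COR15A, a cold-induced chloroplast protein, had 1101, 1147 and 1395 in F1 against 2367, 2733 and 1618 in Col (log2 -0.86 ± 0.19 SE, adjusted p = 0.115). COR15B differed by -0.67 ± 0.16 (adjusted p = 0.141) and COR47 by -0.52 ± 0.33 (adjusted p = 0.71). The small heat shock protein gene ATHSP22.0 differed by -0.39 ± 0.82 (adjusted p = 0.953).

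Among lists of secondary metabolism and detoxification, 0 genes were called, beside 0.509% of all probe sets. That is near the share, so it says little about these genes. Of the flavonol and anthocyanin list 7 of 19 loci were tested, and of the glucosinolate list 2 of 23. Of 7 flavonol and anthocyanin genes 6 were below 0, with a median of -0.54 and 1 unadjusted p under 0.05. The median was -0.17 with 3 genes above 0 without Col replicate 1, -0.35 without F1 replicate 2 and -0.84 without Col replicate 3. DFR, an enzyme of anthocyanin synthesis, had 357, 245 and 492 in F1 against 976, 707 and 395 in Col, with overlap (log2 -0.89 ± 0.32 SE, adjusted p = 0.425); UGT78D2 and UGT78D1 each differed by -0.54 (adjusted p = 0.677 and 0.74). Of 13 cytochrome P450 genes 10 were above 0 with a median of 0.30 (0.19 without F1 replicate 2), led by CYP71B34 at 0.42 ± 0.15 (adjusted p = 0.424), CYP51G2 at 0.63 ± 0.25 (adjusted p = 0.488; Col under the filter level) and CYP71B22 at 1.61 ± 0.78 (adjusted p = 0.602). Of 8 glutathione transferase genes 6 were above 0 with a median of 0.31; GSTU26 differed by 1.33 ± 0.35 (adjusted p = 0.194), GSTU20 by 0.30 ± 0.09 (adjusted p = 0.323) and GSTU27 by 0.68 ± 0.22 (adjusted p = 0.366). Of 23 UDP-glycosyltransferase genes 11 were above 0 with a median of -0.05 (-0.13 without F1 replicate 3); UGT72B3 differed by 1.14 ± 0.23 (adjusted p = 0.0857), UGT72E1 by 0.75 ± 0.31 (adjusted p = 0.519) and UGT88A1 by -0.25 ± 0.11 (adjusted p = 0.569). The glucosinolate genes BCAT4 and UGT74B1 differed by 0.20 ± 0.26 and 0.24 ± 0.36 (adjusted p = 0.906 and 0.926). The 3 class III peroxidase genes AT5G64120, PRXR1 and AT2G41480 differed by 0.74 ± 0.62, 0.07 ± 0.07 and 0.02 ± 0.34 (adjusted p = 0.808, 0.866 and 0.995), the last with both means under the filter level.

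Growth, ribosome and chromatin lists gave 0 calls, beside 0.509% of all probe sets called. That is near the share, so 0 calls says little about these genes. Of 120 cytosolic ribosomal protein genes 79 were above 0, with a median of 0.05 and 8 unadjusted p under 0.05; AT2G39390 differed by 0.50 ± 0.13 (adjusted p = 0.202), AT5G28060 by 0.40 ± 0.11 (adjusted p = 0.229) and AT5G07090 by 0.36 ± 0.10 (adjusted p = 0.227). Of 17 expansin and xyloglucan endotransglucosylase genes, which loosen or remodel cell walls during growth, 6 were above 0 with a median of -0.14 (0.05 without Col replicate 3); EXPA20 differed by -0.56 ± 0.24 (adjusted p = 0.541), EXPA8 by 0.49 ± 0.55 (adjusted p = 0.878), XTH19 by 0.43 ± 0.52 (adjusted p = 0.894) and the root marker EXPA18 by -0.20 ± 0.36 (adjusted p = 0.944). The auxin response genes IAA18, IAA30 and GH3.9 differed by -0.36 ± 0.28, 0.11 ± 0.24 and -0.06 ± 0.21 (adjusted p = 0.791, 0.956 and 0.974). The histone H2B gene HTB2 had 309, 281 and 242 in F1 against 488, 415 and 663 in Col, with 96.3, 121 and 115 in C24; the groups were apart but not past the test (log2 -0.89 ± 0.19 SE, adjusted p = 0.108). The centromeric histone HTR12 differed by -0.54 ± 0.18 (adjusted p = 0.376) and the linker histone gene HON4 by -0.08 ± 0.13 (adjusted p = 0.933).

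Few genes of starch, flowering and DNA methylation could be tested, and 0 were called, of 6, 3 and 1 tested from lists of 24, 28 and 23 loci. The sucrose exporter SWEET11 differed by 0.44 ± 0.17 (adjusted p = 0.454) and APL4, of starch synthesis, by 0.44 ± 0.29 (adjusted p = 0.733). QQS, known for its effect on leaf starch, had 101, 211 and 151 in F1 against 209, 302 and 263 in Col, with overlap at the edge (log2 -0.79 ± 0.56 SE, adjusted p = 0.76), and 1.16, 6.42 and 1.36 in C24. The floral repressors SNZ and SMZ differed by 0.72 ± 0.44 and 0.27 ± 0.25 (adjusted p = 0.689 and 0.838), and the clock gene GI by 0.01 ± 0.15 (adjusted p = 0.997). DME, a DNA glycosylase that removes methylated cytosine, differed by -0.06 ± 0.19 (adjusted p = 0.973). Over all lists, 866 loci were listed; probe sets named 504 of them, and of the 368 tested 8 were called higher and 2 lower, beside 0.408% and 0.1% of all probe sets. THI2.2, AT1G66100 and JAL22 are among the 8 only through the lists written with the calls in view. The other lists were chosen with earlier results of these data known. The counts are therefore a description, and nothing is read from their shares.

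**Figure D5:**
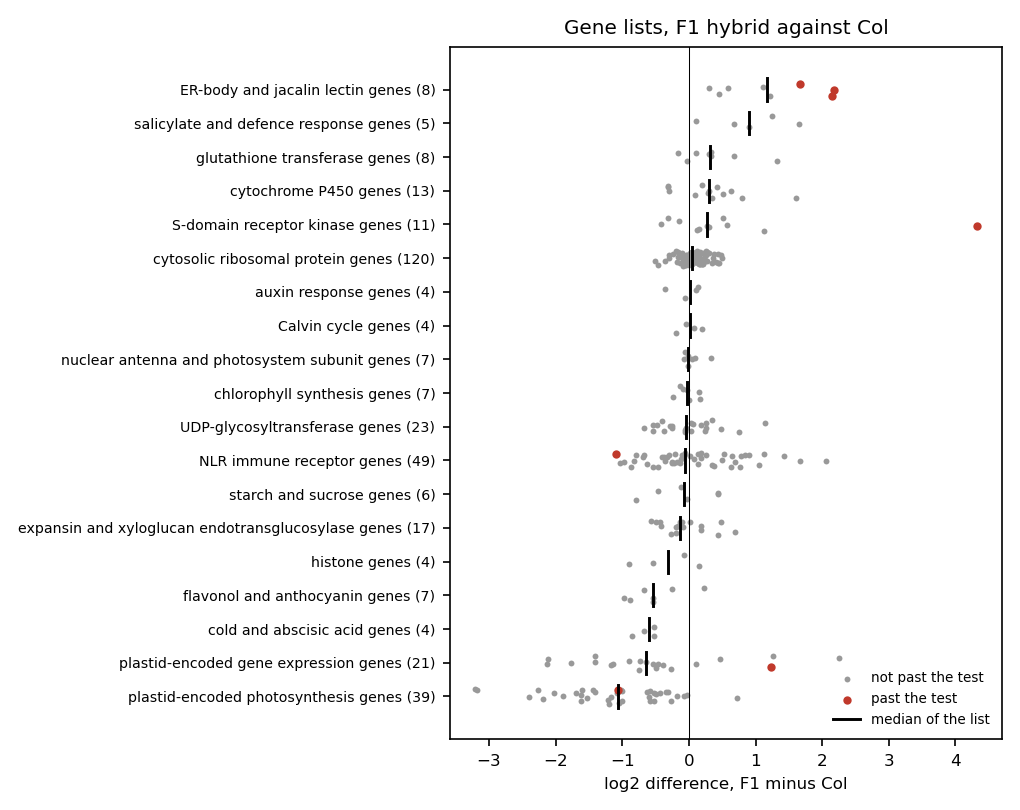
The log2 difference, F1 minus Col, of each tested gene of the lists with at least 4 tested genes (number in brackets), with red points for genes past the test and a black bar at the median of the list. The ER-body and jacalin lectin list has a median of 1.17 and the plastid photosynthesis list of -1.06, while the ribosomal protein list lies at 0.05.

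Calls lay on all 5 nuclear chromosomes and in the plastid genome. Of tested named genes, 16 on chromosome 1 (0.692%), 7 on chromosome 2 (0.549%), 5 on chromosome 3 (0.28%), 9 on chromosome 4 (0.704%) and 12 on chromosome 5 (0.575%) were called, and in the plastid genome psbL and rps18, 2 of 62 (3.23%). All 5 on chromosome 3 and all 12 on chromosome 5 were higher in F1; on chromosome 4 there were 6 higher and 3 lower, and on chromosome 1 there were 11 higher and 5 lower. Calls came from every range of signal, from 20 of the 3185 dimmest tested probe sets (0.628%) to 14 of the 3185 brightest (0.44%).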

How the data were processed

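Signals of F1 and Col seedlings were compared in the 3 arrays of each group. The deposited values are intensities per probe set on a linear scale, made by the authors; the submitters' processing notes name GCOS, with no version or settings given in the sources used here. Per array, the mean after leaving out 2% of the deposited intensities at each end was 150.01 to 150.02, so the arrays had been scaled to a common level, with values between 0.0104 and 9775; detection calls were not used. Column medians spanned 0.24 in log2, over the limit of 0.2 set for the choice, which led to quantile normalization of all 9 arrays in limma 3.58.1 (R 4.3.3) after 64 control probe sets were set aside, then set to at least 1 and log2 transformed. The deposited intensities as scaled by the authors were kept as an alternative. The dimmest 30% of probe sets by mean log2 signal over all 9 arrays, C24 included, those under a signal of 11.1, were left out. One mean per group was fitted to all 9 arrays (lmFit, eBayes with a trend, 6 residual degrees of freedom), with Benjamini-Hochberg adjustment over 15922 probe sets and a threshold of 0.05. Folds come from fitted log2 means. Where the dimmer mean of a called probe set lies under 11.1, the fold is a bound, with the dimmer arrays raised to 11.1; the number of arrays limits their precision. The fit was tried on simulated data with independent noise and changes placed only in probe sets above the median signal. The simulation held no replicate effect and no dim groups, so nothing is read from it about these calls.

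Gene names come from the platform annotation and were brought up to date through Entrez numbers in a RefSeq table (TAIR10.1), which also gave neighbours; AT1G67865 was matched by symbol. Of 22746 probe sets 13513 name 1 gene, 503 several and 8730 are not listed; 8809 of the first kind were tested, for 8722 genes. A gene of a list is read by its brightest probe set. Named genes are the 20 highest and up to 12 lowest calls that name 1 gene, do not overlap between the arrays and have a brighter group above the median signal, which only 9 lower genes met, with list members past the threshold, up to 3 of the smallest p per list, and called neighbours. The members and lists were chosen with earlier results of these data known. The lists of NLR, ribosomal protein, S-domain kinase, thionin, jacalin-related lectin and heat shock genes were written by locus or symbol after the files had been read, those of thionins and jacalin-related lectins with the called genes in view.

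Deviations of F1 and Col arrays with the same replicate number from their group means correlated at 0.473, 0.108 and 0.124, all over 0.1, the limit set for taking the numbers to pair the samples; the labels do not say that they do. Unmatched pairs reached 0.185 (F1 replicate 3 with Col replicate 2) and 0.132 (F1 replicate 2 with Col replicate 3), so only replicate 1 stands apart, and a call made only with the block rests on a pairing that numbers 2 and 3 do not show. The alternatives were the deposited scaling, a common median, no filter, a filter at the 50th percentile, a floor of 16, no variance trend, the F1 and Col arrays alone, the replicate block and leaving out each array in turn. A fit without replicate 1 of every group was added after seeing the data.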

Additional observations from a re-analysis of the deposited data

How the results depend on the processing

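No call of a named gene turned its direction under any alternative that was run. Of the counts 65, 16 and 72 (higher, lower, at least 2-fold), the filter at the 50th percentile gave 43 higher, a floor of 16 gave 34 lower, the F1 and Col arrays alone gave 28 higher and 42 at least 2-fold, the replicate block gave 32 lower beside 88 higher, and the fit without replicate 1 of every group, chosen after seeing the data, gave 26, 4 and 30. Leaving out 1 array gave 30 to 61 higher, 6 to 20 lower and 38 to 75 at least 2-fold; the cause was not tested, and each such fit has fewer arrays. The other counts were within 1.5 times. Of 30 named calls, 26 held under the deposited scaling, 28 under a common median, 18 without a filter, where more probe sets are tested, 28 without the variance trend, 18 with the F1 and Col arrays alone, 29 with the replicate block and 10 without replicate 1 of every group; all 30 held with a floor of 16, which kept 53 of the 65 higher probe sets and all 16 lower ones, and the 28 tested held with the filter at the 50th percentile. AT4G23050, AR781, AT4G19500 and AT1G47530 lost their calls under the deposited scaling, and AT4G19500 and AT1G47530 also under a common median. AT1G67865 lost its call without a filter. AT4G19500 was the only named call lost with the block, and PYK10 the only named gene gained with it. Among named genes that were not called, PSBY turned to -0.0673 and PRXR1 to -0.0871 in log2 under the deposited scaling, and to -0.0588 and -0.0786 under a common median, ATHSP22.0 to 0.0356 with a floor of 16, and XTH19 to -0.0109 and FMA to 0.0802 without replicate 1 of every group. With 1 array left out, the log2 differences of these uncalled genes ran across 0, from -0.0876 to 0.0258 for RCA, -0.0855 to 0.134 for GI, -0.2659 to 0.1086 for GH3.9, -0.145 to 0.0216 for HON4, -0.0184 to 1.3846 for AT5G64120, -0.1845 to 0.3578 for AT2G41480, -0.1316 to 0.4022 for BCAT4, -0.1718 to 0.5312 for UGT74B1, -0.2316 to 0.0599 for DME, -0.4451 to 0.045 for EXPA18 and -0.1864 to 0.0454 for FMA. The median of all probe sets moved by no more than 0.0115 in log2 from 0 under these alternatives. Signals near the filter level were not separated from background, which limits the dimmest genes.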

Other observations

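With the replicate number as a block, 25 further probe sets were called higher in F1 and 17 lower, and some of these name genes not described above; those given here were picked after their values were seen, and replicate numbers 2 and 3 are not shown to pair the samples. AT1G67860, the gene next to AT1G67865, had signals of 225, 385 and 172 in F1 against 462, 682 and 685 in Col, with 63.2, 124 and 108 in C24. Like its neighbour it was dimmer in every F1 array than in any Col array (log2 -1.28 ± 0.33 SE; adjusted p = 0.19 without the block and 0.0487 with it). TBL23, of the family of cell wall acetyltransferase-like proteins, had 52.7, 58.4 and 56.9 in F1 against 119, 119 and 120 in Col (adjusted p = 0.0637 without the block and 0.0417 with it). Its replicates were close in both groups. TBL45 of the same family was higher in F1, with 285, 485 and 754.6 in F1 against 161, 166 and 388 in Col, groups that overlap (adjusted p = 0.484 without the block and 0.0193 with it). At every replicate number its F1 array was above the Col array.

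SAPX, the stromal ascorbate peroxidase that removes hydrogen peroxide in chloroplasts, had 832, 682 and 587 in F1 against 554, 270.1 and 318 in Col, with 934, 602 and 606 in C24 (adjusted p = 0.279 without the block and 0.0276 with it). The groups did not overlap, and replicate 1 was the brightest array in each of the 3 groups. The plastid gene cemA, for a protein of the plastid envelope, had 148, 12.9 and 140.4 in F1 against 743, 473 and 559 in Col (adjusted p = 0.159 without the block and 0.0487 with it). All F1 arrays were below all Col arrays, F1 replicate 2 by the most.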
